A study of Mus musculus with 20 samples.

Results

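The 9 genes described here code for proteins that modify or feed into the mammalian circadian clock, and they were taken by name from the 24062 gene symbols counted in dermal lymphatic endothelial cells (LECs). They are the kinase genes Csnk1d, Csnk1e, Gsk3b and Prkaa1, the ubiquitin ligase gene Btrc, the deubiquitinase gene Usp2, the repressor gene Ciart, and Nampt and Sirt1 of NAD metabolism and NAD-dependent deacetylation. All 9 passed the filter on low counts that 19209 symbols passed.

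LECs were sorted as CD31+podoplanin+ cells from ear skin of wild type C57BL/6 mice at postnatal day 56, at zeitgeber time (ZT) 1, 7, 13 or 19, where ZT counts the hours after lights on. Each of the 5 biological replicates per time point pooled ears of a pair of mice, so that n counts pools, and 20 libraries were sequenced without any other treatment or allele. The question addressed is whether these genes change with the time of day in LECs.

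The clock is a loop in which CLOCK and BMAL1 (gene Arntl) bind E-boxes and activate the Period and Cryptochrome genes, whose proteins return to the nucleus and inhibit their own activation. How long this takes is set largely after translation. Casein kinases 1 delta and epsilon phosphorylate PER proteins, the F-box protein beta-TrCP marks the phosphorylated PER for ubiquitination and proteasomal decay, and GSK3B and AMPK phosphorylate further clock proteins. NAMPT and SIRT1 link the loop to NAD, the cofactor that SIRT1 consumes. Many of these proteins are controlled by activity and location, so the mRNA level is only one of the layers at which they act.

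Reads counted on genes ranged from 4475111 to 42002363 per library. The share of usable reads that fell on genes ran from 12.7% to 81.6%, and 14 libraries were under 50%, of which ZT1 had 5, ZT7 had 4, ZT13 had 4 and ZT19 had 1. The libraries of ZT7 replicate 2 (62.3%) and ZT13 replicate 5 (79.9%) stood apart from their time points in this share. All 8 LEC markers examined, Prox1 and Lyve1 among them, were detected, with summed normalised counts between 45685 and 113703. None of the 10 keratinocyte markers was at 0 throughout, and their sum ran from 32859 to 67265 at ZT1, from 57774 to 173095 at ZT7, from 9904 to 29613 at ZT13 and from 89789 to 180802 at ZT19. In bulk samples fewer cells of a type and less RNA per cell cannot be told apart. Summed over 6 fibroblast markers, none of them at 0 throughout, the ZT1 libraries held a median of 8721 counts (range 4391 to 15904) and the ZT7 libraries one of 1792 (814 to 3988). For ZT13 the median was 2749 (259.8 to 8210.2), and for ZT19 it was 6902 (978 to 11102). Fits with the log2 odds of a read falling on a gene as a covariate, and with keratinocyte and fibroblast scores as covariates, called 0 of the 9 genes in every comparison. Of all genes these fits called 0.255% and 0.0312% among the time points, and at most 0.281% (ZT13 and ZT19) and 8.04% (ZT7 and ZT19) in a pair.

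Time of day gave 0 calls among the 9 genes at a Benjamini-Hochberg adjusted p below 0.05 (edgeR's quasi-likelihood test over the 4 time points), where 0.422% of all genes tested did. None had a 24-h curve past the same threshold, where 0.0312% of all genes did. At an unadjusted p under 0.05, 1 of the 9, Ciart, passed both tests, against 15.7% of all genes among the time points and 9.23% for the curve. DESeq2 also called 0 of the 9 in either test, where it called 3.12% of all genes among the time points and 0.385% for the curve, with 1 of the 9 under an unadjusted 0.05 in each. The median log2 difference between the highest and the lowest time point was 0.65 over the 9 genes and 1.20 over all genes tested. The median fitted amplitude was 0.26 on the log2 scale over the 9 genes and 0.52 over all genes.

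The promoter windows of Ciart and Sirt1 are shown because they were the only ones among the matched genes to hold the E-box CACGTG, the element that CLOCK and BMAL1 bind. Windows run from 250 bases before to 50 after a RefSeq start (GRCm38.p6), and 7 of the 9 genes matched, with 10 windows. Ciart lies at chr3:95878503-95882251 on the minus strand, and its window is chr3:95882179-95882478. Sirt1 lies at chr10:63319005-63381704 on the minus strand, and its window, chr10:63338986-63339285, lies inside that span because the GENCODE gene reaches farther upstream. Capitals mark CACGTG in sequences written 5′ to 3′ on the gene's strand.
Ciart: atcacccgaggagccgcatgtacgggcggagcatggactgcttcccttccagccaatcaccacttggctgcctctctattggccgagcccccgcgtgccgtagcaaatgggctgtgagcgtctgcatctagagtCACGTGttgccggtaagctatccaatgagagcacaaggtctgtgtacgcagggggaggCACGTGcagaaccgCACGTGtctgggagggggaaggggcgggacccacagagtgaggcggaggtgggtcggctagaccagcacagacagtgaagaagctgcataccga
Sirt1: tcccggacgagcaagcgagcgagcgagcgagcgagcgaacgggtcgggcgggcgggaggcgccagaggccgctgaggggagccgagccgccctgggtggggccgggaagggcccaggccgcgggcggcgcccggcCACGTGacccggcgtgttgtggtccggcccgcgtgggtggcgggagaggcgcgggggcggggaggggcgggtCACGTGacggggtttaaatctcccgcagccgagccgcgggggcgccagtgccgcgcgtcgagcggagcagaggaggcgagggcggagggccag
In Ciart the E-box occurred 3 times, 116, 58 and 44 bases before the start. Sirt1 held it at 115 and 43 bases before the start. Of 32851 windows of 300 bases, 7.15% held at least 1 such motif, 0.594% held 2 or more and 0.0883% held 3 or more. CACGTG reads the same on both strands and was counted once per position. CACGTT, found on either strand in 4.68% of windows, and TTATGNAA, a D-box type of element found in 3.38%, were in no window of the matched genes. These are matches of letters, not measured binding sites.

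Ciart (also called Chrono) codes for a repressor that binds BMAL1 and is itself a clock output. Its normalised read counts at ZT1 were 178, 109, 46.6, 34.0 and 141 in replicates 1 to 5. At ZT7 they were 285, 688, 171, 203 and 274. At ZT13 the 5 libraries gave 137, 454, 93.2, 319.8 and 462, and at ZT19 they gave 222, 128, 264, 109.6 and 317. All ZT7 libraries but the lowest lay above every ZT1 library, the lowest at ZT7 and the highest at ZT1 overlapped narrowly, and ZT13 fell into a low and a high set of libraries. The ZT1 mean was 102 ± 61.3 (SD, n = 5). The other means were 324 ± 209 (ZT7), 293 ± 173 (ZT13) and 208 ± 88.3 (ZT19). The ZT7 mean was 3.19-fold the ZT1 mean, and the fitted log2 difference was 1.68 (95% confidence interval 0.53 to 2.82). Its unadjusted p was 0.00576 and its adjusted p 0.775 in edgeR's test. Between ZT1 and ZT13 the log2 difference was 1.53 (SE 0.56) with an adjusted p of 0.658. The keratinocyte and fibroblast scores as covariates gave 1.62 for ZT7 and 1.04 for ZT13, with adjusted p values of 0.515 and 0.695. Over the 34 settings the ZT7 difference ran from 1.15 to 2.05 and the ZT13 difference from 1.04 to 1.99. In the test over all 4 time points Ciart had an unadjusted p of 0.0320 and an adjusted p of 0.276 (edgeR), the smallest of the 9 genes.

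A 24-h curve for Ciart had a log2 amplitude of 0.82 (SE 0.31) and a peak at ZT 11.5, with an adjusted p of 0.532 in edgeR's test. This was the largest amplitude of the 9 in the main analysis. Taken at that same peak time, it ran from 0.69 to 1.07 over 34 alternative settings, with the fitted peak between 9.48 and 12.9 h. Per3, a Period gene, had a fitted peak at 11.5 h with an amplitude of 0.51. Dbp, an output transcription factor and the single core clock gene of 18 to pass the adjusted threshold, peaked at 8.69 h with an amplitude of 1.10. Dbp had adjusted p values of 0.00409 (time points) and 0.0126 (curve) in edgeR's tests. Over the 20 libraries, which share their depth and composition, Ciart had a Pearson r of 0.483 with Dbp, 0.492 with Per3 and -0.543 with Bhlhe41, a transcriptional repressor of E-box genes. After the time-point means were removed these were 0.300, 0.179 and -0.577. These genes were picked from the 18, and others differed. Bhlhe40 had 0.403 over the 20 libraries and 0.245 within time points, where Nfil3 had 0.601 and Per1 -0.565. Within time points Ciart also followed the log2 odds of a read falling on a gene, with r = 0.578, and over the 20 libraries it had r = -0.408 with the fibroblast score.

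**Figure D1:**
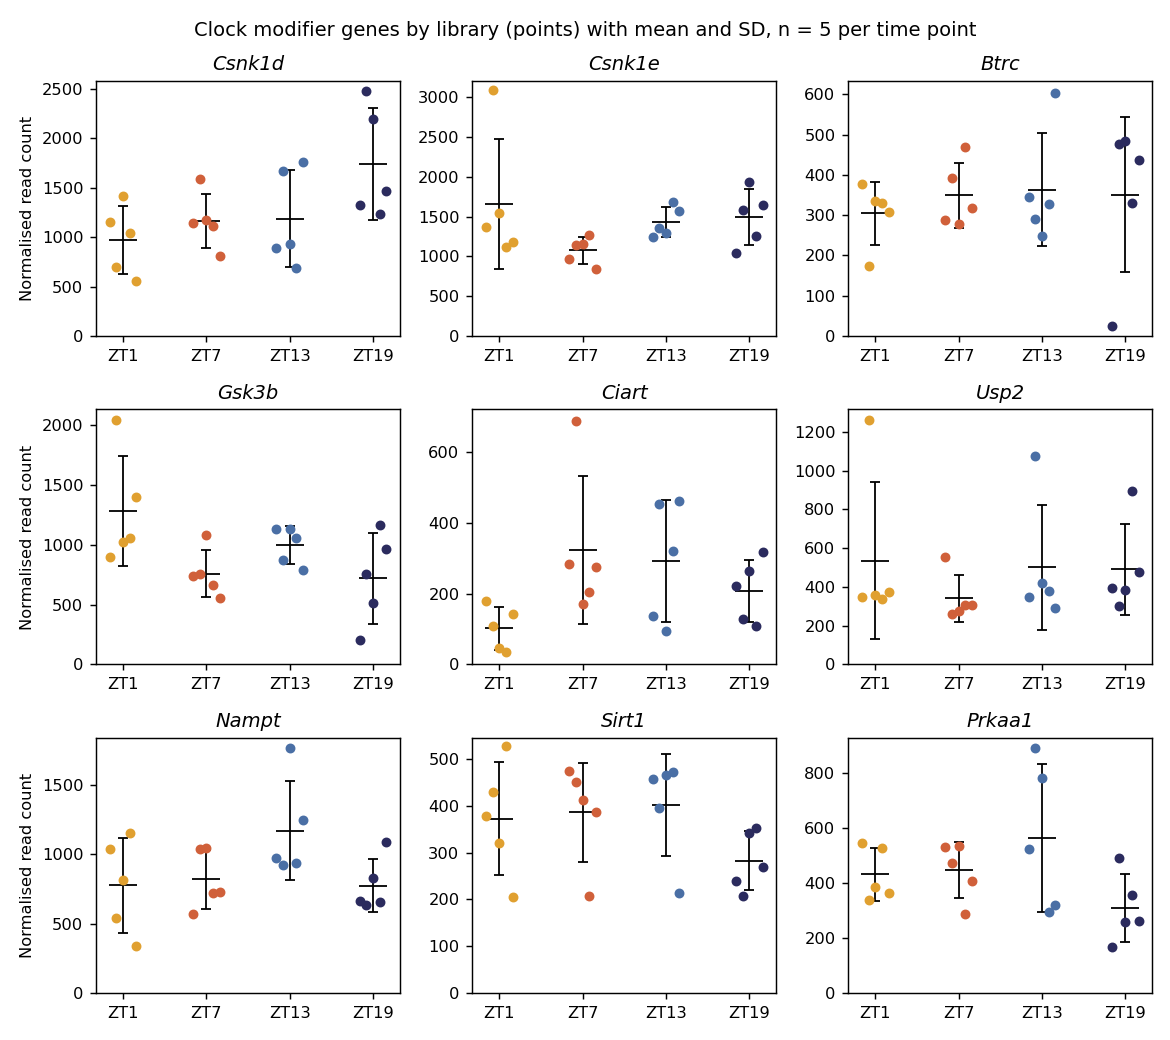
Normalised read counts (vertical axes, from 0) of the 9 genes in each library, with points for the 5 libraries of each time point, a bar at the mean and whiskers of 1 SD. Ciart is lowest at ZT1 and Csnk1d is highest at ZT19, yet every pair of time points overlaps for every gene.

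Casein kinase 1 is the main kinase of PER, and its delta and epsilon forms had the highest means per length of the 9 over the 20 libraries, although Nampt (232 per kilobase) was above Csnk1e (217) at ZT13. Csnk1d (chr11:120961749-120991330, minus strand) had normalised counts of 1155, 703, 1417, 1039.9 and 560.3 at ZT1. It had 1140.4, 1585, 1172, 1117 and 809 at ZT7, and 895, 1666, 934, 688 and 1759 at ZT13. The ZT19 libraries held 1327, 2485, 2196, 1232 and 1468, so that only the highest ZT1 library reached into the ZT19 range. Mean levels were 975 ± 346 at ZT1 and 1742 ± 563 at ZT19 (SD, n = 5). The log2 difference from ZT1 to ZT19 was 0.84 (SE 0.33), with an unadjusted p of 0.0187 and an adjusted p of 0.146 in edgeR's test. Without ZT7 replicate 2 and ZT13 replicate 5, a setting chosen after seeing the data, it was 1.06 with an adjusted p of 0.0476, while 9.37% of all genes then passed between ZT1 and ZT19. With the log2 odds of a read falling on a gene as a covariate it was 0.38 with an adjusted p of 0.810 for the pair. The curve's amplitude, taken at the peak time of the main analysis, then fell to 0.0547. Csnk1d had r = 0.671 with these odds over the 20 libraries and 0.520 within time points. Over all 34 settings the difference between ZT1 and ZT19 ran from 0.34 to 1.06. Among the 4 time points its adjusted p was 0.409, and its curve had an amplitude of 0.32 (SE 0.17) with a peak at 17.3 h.

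Csnk1e (chr15:79417856-79455566, minus strand) codes for the sister kinase. Its ZT1 libraries gave 1366, 3090.1, 1549, 1122 and 1176 normalised counts, and its ZT7 libraries gave 972, 1137, 1162, 1264 and 839. At ZT13 the counts were 1245, 1355, 1291, 1680.0 and 1569.5, and at ZT19 they were 1042, 1578, 1939, 1252 and 1642. One ZT1 library, replicate 2, stood above all others, and the ZT1 and ZT7 ranges still overlapped. The log2 difference from ZT1 to ZT7 was -0.63 (SE 0.30), with an unadjusted p of 0.0468 and an adjusted p of 0.987 in edgeR's test. Without ZT1 replicate 2 it was -0.29, with an unadjusted p of 0.324. With the log2 odds of a read falling on a gene as a covariate it was -0.63, with an unadjusted p of 0.0372. With keratinocyte and fibroblast scores it was also -0.63, with an unadjusted p of 0.0788. The log2 TMM factor, the scaling for library composition, gave -0.47 as a covariate, with an unadjusted p of 0.178 in edgeR's test. Over the 34 settings the difference ran from -0.75 to -0.20. The log2 ratio of Csnk1d to Csnk1e averaged -0.74 ± 0.88 (ZT1), 0.10 ± 0.26 (ZT7), -0.35 ± 0.63 (ZT13) and 0.20 ± 0.32 (ZT19; SD, n = 5) on normalised counts not divided by length. ZT1 replicate 2 held the lowest ratio, -2.13, and no test was run on the ratio.

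GSK3B is a serine/threonine kinase that phosphorylates several clock proteins, among them PER2, CRY2 and REV-ERB alpha. Gsk3b (chr16:38089001-38246084, plus strand) gave 893, 2035, 1024, 1054 and 1394 at ZT1 and 737, 752, 1081, 659 and 558 at ZT7. It gave 1134, 869.5, 1133, 1051 and 787 at ZT13 and 202, 751, 508, 1167 and 967 at ZT19. Most ZT1 libraries lay above most ZT7 libraries, and ZT1 had the highest library and ZT19 the lowest, at 202. The log2 difference from ZT1 was -0.76 (SE 0.36) at ZT7, with an unadjusted p of 0.0439 and an adjusted p of 0.977. At ZT19 it was -0.83 (SE 0.36), with an unadjusted p of 0.0277 and an adjusted p of 0.173 in edgeR's test. DESeq2 gave -0.91 for the latter, with an adjusted p of 0.0708. With the log2 odds of a read falling on a gene as a covariate it was -0.54, with an adjusted p of 0.738. With keratinocyte and fibroblast scores the differences from ZT1 were -1.01 at ZT7 and -1.11 at ZT19, with adjusted p values of 0.424 and 0.117. With the log2 TMM factor, the scaling for library composition, as a covariate they were -0.13 and -0.61, with unadjusted p values of 0.725 and 0.0602. Over the 34 settings the ZT7 difference ran from -1.01 to -0.13 and the ZT19 difference from -1.11 to -0.14. Gsk3b had r = -0.597 with the log2 TMM factor over the 20 libraries. A fitted curve described this pattern little, with an amplitude of 0.19 (SE 0.18).

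Prkaa1 (chr15:5143861-5181899, plus strand) codes for the alpha 1 catalytic subunit of AMPK, the energy sensor whose phosphorylation of CRY1 promotes its decay. Its normalised counts were 543, 339, 383, 526 and 362 at ZT1 and 528, 473, 533, 288 and 406 at ZT7. They were 524, 889.6, 781, 292 and 321 at ZT13, and 166, 491, 258, 357 and 262 at ZT19. ZT13 held both the highest libraries and 2 low ones, which lay within the ZT19 range. From ZT13 to ZT19 the log2 difference was -0.87 (SE 0.37), with an unadjusted p of 0.0247 and an adjusted p of 0.192 in edgeR's test. DESeq2 gave -1.03 with an adjusted p of 0.0571, and the 34 settings gave -1.10 to -0.64. With the log2 odds of a read falling on a gene as a covariate it was -0.73, with an unadjusted p of 0.0754. With keratinocyte and fibroblast scores it was -0.65, with an unadjusted p of 0.225. With the log2 TMM factor it was -0.88, with an unadjusted p of 0.0198. The adjusted p values of these edgeR fits were 0.425, 0.487 and 0.160.

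**Figure D2:**
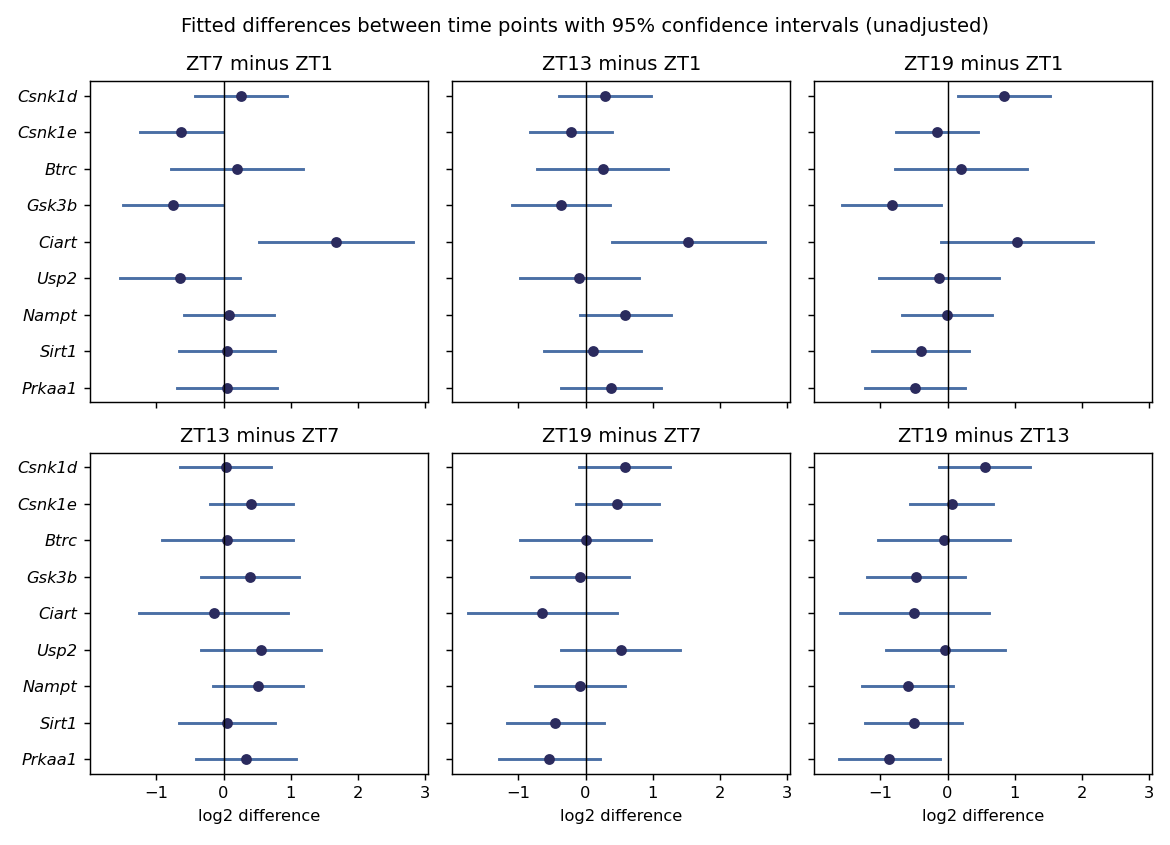
Fitted log2 differences (horizontal axes, later minus earlier time point) of the 9 genes for the 6 pairs of time points, with points for the estimates and lines for unadjusted 95% confidence intervals. Of 54 intervals, 7 exclude 0, and those of Ciart between ZT1 and ZT7 and ZT13 lie farthest from it.

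Over the 54 comparisons of 9 genes in 6 pairs of time points, 0 passed the adjusted threshold, where the share of all genes tested that did was 0.00521% between ZT1 and ZT7, 0.0208% between ZT1 and ZT13, 0.0156% between ZT1 and ZT19, 0.0937% between ZT7 and ZT13, 0.0156% between ZT7 and ZT19 and 0.588% between ZT13 and ZT19 in edgeR's test. DESeq2 also called 0 of the 54, while it called 10.4% of all genes between ZT1 and ZT19, 10.8% between ZT7 and ZT19 and 9.26% between ZT13 and ZT19. Its shares were 0.0626% between ZT1 and ZT7, 0.391% between ZT1 and ZT13 and 0.423% between ZT7 and ZT13. At an unadjusted p under 0.05, edgeR's test gave 7 of the 54. These were 3 genes between ZT1 and ZT7 (background 4.97%), 1 between ZT1 and ZT13 (5.37%), 2 between ZT1 and ZT19 (21.6%) and 1 between ZT13 and ZT19 (19.2%). Between ZT7 and ZT13 (2.59%) and between ZT7 and ZT19 (19.7%) there was none. DESeq2 gave 7 as well, but split otherwise, with 1 between ZT1 and ZT7 (Ciart; 5.12% of all genes), 1 between ZT1 and ZT13 (6.37%), 2 between ZT1 and ZT19 (27.5%) and 3 between ZT13 and ZT19 (Nampt, Sirt1 and Prkaa1; 24.8%). No gene of the 9 had groups that did not overlap in any pair, where the share of all genes that did was 1.75% (ZT1 and ZT7), 1.47% (ZT1 and ZT13), 8.56% (ZT1 and ZT19), 1% (ZT7 and ZT13), 1.94% (ZT7 and ZT19) and 2.48% (ZT13 and ZT19). From ZT13 to ZT19, 7 of the 9 genes had a lower fitted level, and the median log2 difference was -0.47 over the 9 and -0.22 over all genes. Over the 34 settings between 1 and 4 genes were higher at ZT19. From ZT7 to ZT13, 8 of the 9 had a higher fitted level, with medians of 0.33 and -0.07, but this count ran from 5 to 9 over the 34 settings, and the sign changed for Csnk1d in 11 of them, Btrc in 8, Sirt1 in 6 and Ciart in 5.

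Beta-TrCP, the product of Btrc (chr19:45363734-45530013, plus strand), is the F-box subunit that recognises phosphorylated PER. Its normalised counts were 377, 173, 334, 329.6 and 309 at ZT1 and 289, 393, 277, 468 and 318 at ZT7. They were 344, 289, 248, 328 and 604 at ZT13, and 25.0, 477, 485, 329 and 436 at ZT19. The means lay close together and a single ZT19 library was far below the rest. With means between 304 and 363, Btrc had the smallest log2 range of the 9 genes, 0.25, and an adjusted p of 0.985 over the 4 time points. The 95% interval of its ZT1 to ZT13 difference ran from -0.72 to 1.23, so a change anywhere in that range remains compatible with the data. Its level per kilobase of exon, 20.2, was also the lowest of the 9, and it was below Sirt1 in 20 of 20 libraries.

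USP2 removes ubiquitin from clock proteins including BMAL1, PER1 and CRY1, and its gene (chr9:44067021-44095627, plus strand) is a clock output in many tissues. Usp2 gave 347, 1258, 359, 336 and 376 normalised counts at ZT1 and 553, 261, 277, 306 and 307 at ZT7. It gave 347, 1073, 419, 379 and 289.8 at ZT13 and 395, 303, 383, 893 and 476 at ZT19. Each time point had 1 library well above its other 4. Those others held 336 to 376 at ZT1, 261 to 307 at ZT7, 289.8 to 419 at ZT13 and 303 to 476 at ZT19. They were set apart by their Usp2 counts, and with all libraries ZT1 and ZT7 overlapped. The mean was highest at ZT1 (535 ± 404) and lowest at ZT7 (341 ± 120.2, SD, n = 5), with a log2 difference of 0.65 and, over the 4 time points, an adjusted p of 0.762 in edgeR's test. Without ZT1 replicate 2 this difference was 0.0649, and with keratinocyte and fibroblast scores as covariates it was 1.20, with an adjusted p of 0.235 over the time points. Usp2 had r = -0.453 with the fibroblast score over the 20 libraries.

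In all 4 time points the library highest in Usp2 was the one with the lowest TMM factor, the scaling for library composition. These factors were 0.731 in ZT1 replicate 2, 0.858 in ZT7 replicate 1, 0.846 in ZT13 replicate 2 and 0.763 in ZT19 replicate 4. Within time points the log2 level had r = -0.756 with the log2 factor, and over the 20 libraries r = -0.739. A low factor raises a normalised count by construction, and with CPM, scaled by library totals alone, r over the 20 libraries was -0.457. The same 4 libraries were still the highest, with 86.4, 44.6, 85.4 and 64.0 CPM. ZT1 replicate 5, with a factor of 0.753, did not follow, at 376 normalised counts. Over the 20 libraries 586 of all genes tested (3.05%) had an r of -0.75 or less with the log2 factor. Usp2, at -0.739, did not reach that cut. With the log2 factor as a covariate the Usp2 difference of ZT1 over ZT7 was -0.33, so that ZT7 was then the higher.

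**Figure D3:**
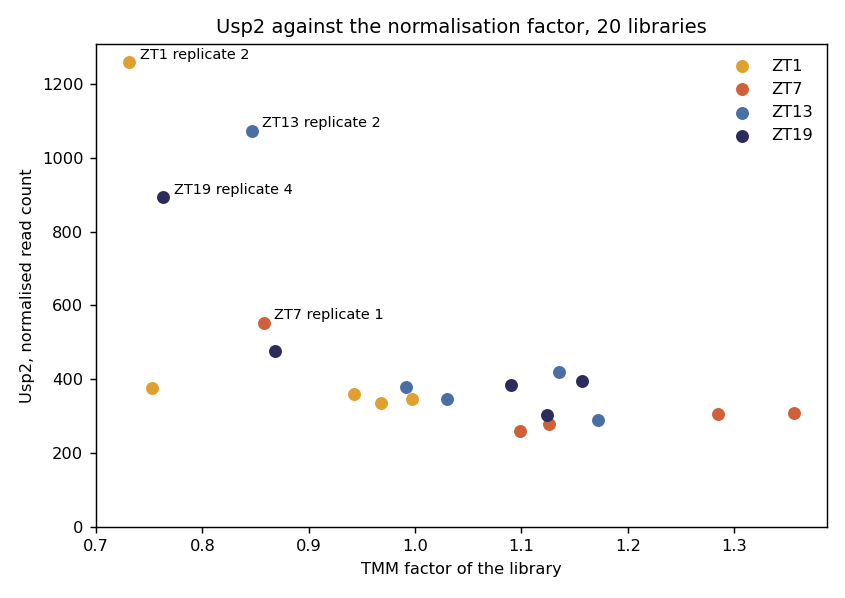
Normalised read counts of Usp2 (vertical axis) against the TMM factor of the library (horizontal axis, no unit), with 1 point per library coloured by time point. The labelled library of each time point has its lowest factor and its highest Usp2 count, while ZT1 replicate 5 has a factor of 0.753 and 376 counts.

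NAMPT is the rate-limiting enzyme of NAD salvage. Nampt (chr12:32819545-32853349, plus strand) gave 1037, 537, 812, 1156 and 335 at ZT1 and 569, 1036, 1047, 717 and 725 at ZT7. It gave 975, 926, 1767, 934 and 1249.9 at ZT13 and 664, 634, 829, 654 and 1088 at ZT19. ZT13 was the highest, and its libraries overlapped those of every other time point. The mean was 1170.4 ± 359 at ZT13 and 774 ± 192 at ZT19 (SD, n = 5), a log2 difference of -0.60 (SE 0.33) with an adjusted p of 0.321. With keratinocyte and fibroblast scores as covariates it was -1.31, with an unadjusted p of 0.0126 and an adjusted p of 0.128, and without ZT13 replicate 3 it was -0.39, the ends of its range over the 34 settings. With these scores ZT13 was above ZT1 by 1.07 and above ZT7 by 1.14 on the log2 scale, against 0.59 and 0.51 without them. Keratinocyte marker sums were at most 29613 at ZT13 but at least 57774 at ZT7 and 89789 at ZT19. With no overlap, time of day and composition cannot be told apart between these time points. Nampt had r = 0.483 with the keratinocyte score within time points. Its curve had an amplitude of 0.30 (SE 0.16) and a peak at 12.5 h, with an adjusted p of 0.630 in edgeR's test.

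SIRT1 is an NAD-dependent deacetylase that acts on BMAL1 and PER2. Its normalised counts were 378, 429, 320.3, 529 and 206 at ZT1 and 474, 451, 413, 206 and 387 at ZT7. They were 457, 397, 466, 472 and 213 at ZT13, and 239.6, 208, 342, 353 and 269.6 at ZT19. ZT1, ZT7 and ZT13 each had 1 library near the lowest ZT19 value, and the others lay mostly above ZT19. From ZT13 to ZT19 the log2 difference was -0.50 (SE 0.35), with an adjusted p of 0.439. With keratinocyte and fibroblast scores as covariates it was -1.25, with an unadjusted p of 0.0239 and an adjusted p of 0.168, and over the 34 settings it ran from -1.25 to -0.31. Since the keratinocyte marker sums of ZT13 and ZT19 did not overlap, time of day and composition cannot be told apart in that fit. Within time points Sirt1 had r = 0.598 with the keratinocyte score. Sirt1 and Prkaa1 had r = 0.510 over the 20 libraries and 0.378 within time points.

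**Figure D4:**
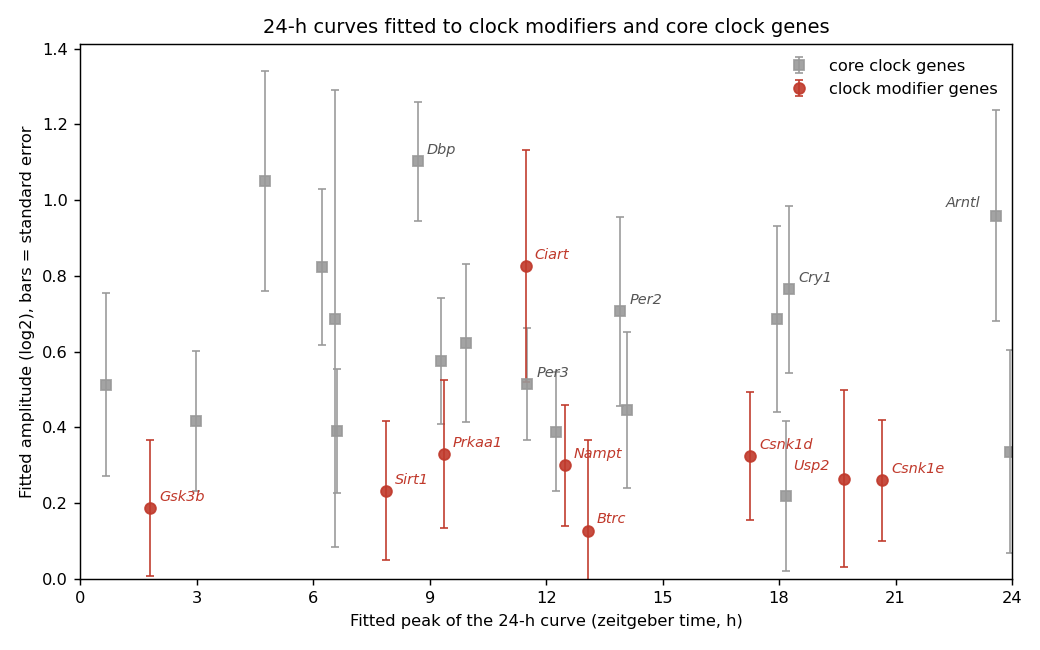
Fitted log2 amplitude with its standard error (vertical axis) against the fitted peak in hours (horizontal axis) for the 9 clock modifier genes (circles) and 18 core clock genes (squares) over 20 libraries. Ciart has an amplitude of 0.82, and the other 8 modifier genes lie between 0.13 and 0.33.

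Per kilobase of exon, the mean normalised counts over the 20 libraries were 252 ± 98.4 for Csnk1d, 215 ± 72.4 for Csnk1e, 175 ± 61.9 for Nampt and 103 ± 70.9 for Ciart. By this mean Usp2 followed with 96.9 ± 57.5, Gsk3b with 95.4 ± 38.2, Prkaa1 with 93.7 ± 37.9, Sirt1 with 67.7 ± 19.7 and Btrc with 20.2 ± 7.25 (SD, n = 20). Ciart, Usp2, Gsk3b and Prkaa1 did not differ beyond their spread, since each was above the next in only 11, 8 and 9 of 20 libraries. The order also differed between time points, since Ciart had a mean of 45.0 at ZT1, below Sirt1 (69.9), Prkaa1 (92.5) and Gsk3b (130.2), and 92.1 at ZT19, below Usp2 (101.7), while at ZT7 (143) and ZT13 (129.7) it came next after Csnk1d, Csnk1e and Nampt. Csnk1d was above Csnk1e in 15, Csnk1e above Nampt in 13, Nampt above Ciart in 17 and Prkaa1 above Sirt1 in 16. Exons of 5 of these genes overlap annotated genes on the opposite strand, by 63 bases for Csnk1d, 267 for Csnk1e, 235 for Btrc, 200 for Usp2 and 65 for Sirt1. No strand setting of the counting is given in the sources used here, so reads of these stretches cannot be assigned to a strand.

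Genes whose log2 levels followed the 3 members of smallest p most closely over the 20 libraries were looked for among 12562 genes. For Ciart they were Tinagl1 (r = 0.792), Casp6 (0.763) and Rnf2 (0.749). For Gsk3b they were Slain1 (0.877), Loxl2 (0.876) and Creb1 (0.872), and for Csnk1d they were Uqcc1 (0.877), Zfp12 (0.850) and Sirt7 (0.843). These are the highest of many values and carry no test.

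Other genes of the same machinery gave 0 calls in each of 4 lists at an adjusted p below 0.05, both over the time points and for the curve (edgeR). At an unadjusted p under 0.05 their counts stand against 15.7% of all genes among the time points and 9.23% for the curve, and the adjusted p given with a gene is that over the 4 time points. Of 22 further kinase and AMPK genes, 2 had an unadjusted p under 0.05 among the time points and 1 for the curve. The smallest was Prkag2, a regulatory subunit of AMPK, with 2209 normalised counts at ZT13 and 948 at ZT7 (adjusted p = 0.202), and DESeq2 gave it an adjusted p of 0.0444. Gsk3a, the paralogue of Gsk3b, had 602 at ZT1 and 277 at ZT7 (adjusted p = 0.296), and Prkab1, an AMPK beta subunit, had 656 at ZT19 and 299 at ZT1 (adjusted p = 0.328).

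Of 6 phosphatase catalytic subunits, which counter these kinases, 2 had an unadjusted p under 0.05 among the time points and 0 for the curve. Ppp1ca had 5106 at ZT19 and 1908 at ZT1 (adjusted p = 0.215). Ppp1cb had the opposite order, with 1557 at ZT1 and 809 at ZT19 (adjusted p = 0.255). Ppp2ca had 2863 at ZT19 and 1706 at ZT13 (adjusted p = 0.362).

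Of 20 further ubiquitin ligase and deubiquitinase genes, 5 had an unadjusted p under 0.05 among the time points and 3 for the curve. Stub1, a chaperone-linked ligase, had 1038 at ZT19 and 309.8 at ZT1 (adjusted p = 0.166). Huwe1, a large HECT ligase, had 2999 at ZT1 and 1354 at ZT19 (adjusted p = 0.224). Skp1a, the adaptor that joins F-box proteins such as beta-TrCP to the cullin, had 5438 at ZT19 and 2569 at ZT13 (adjusted p = 0.258).

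Of 21 NAD and acetylation genes tested, 4 had an unadjusted p under 0.05 among the time points and 3 for the curve. The acetyltransferase gene Ep300 had 1322 at ZT1 and 528 at ZT19 (adjusted p = 0.193). Hdac3, the deacetylase of the NCOR complex, had 1640.0 at ZT19 and 637 at ZT7 (adjusted p = 0.220). Sirt7, a nuclear sirtuin, had 1081 at ZT19 and 474 at ZT1 (adjusted p = 0.239). In the core clock list 11 of 18 had an unadjusted p under 0.05 among the time points and 10 for the curve, where 15.7% and 9.23% of all genes did, and the clock modifiers had 1 of 9 in each, near those shares.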

How the data were processed

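RNA of sorted dermal LECs was amplified as full-length cDNA without molecular identifiers and sequenced. The authors deposited raw read counts per gene symbol for each library. Per the submitters' processing notes, STAR, HTSeq 1.0.0 and DESeq2 2.11.40.6 were used with mm10. The 5 HTSeq rows that name no gene held between 47.5% and 96.7% of each file's total and were left out. Samples were grouped by the time point in their labels.

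The analysis used edgeR 4.0.16 under R 4.3.3, with TMM scaling, filterByExpr by time point and the quasi-likelihood F-test in 1 fit of all 20 libraries, and Benjamini-Hochberg adjustment over 19209 genes. Tests compared the 4 time points, the 6 pairs and cosine and sine terms of a 24-h period. For normalised counts, each count was divided by its library's effective size over the geometric mean of these sizes, with a pseudocount of 1 on the log2 scale. Exon lengths came from GENCODE M21 (GRCm38). Replicates are separate pools of mice, and the biological coefficient of variation, 1.00 in common and between 0.447 and 0.639 for the 9 genes, limits the precision. The values for the 9 genes follow the trend with mean count used in the fit, not each gene's own spread. The fits were tested on simulated data.

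The genes named are the 9 members, the genes of each pathway list past the threshold or otherwise the 3 of smallest p, and the 3 genes most like each of the 3 members of smallest p (mean normalised count of at least 50). Members and lists were chosen with earlier results of these data known. Naprt was not found among the symbols used here. Alternatives were DESeq2 1.42.0, other scalings and filters, covariates, thinned counts, a replicate block, pairs fitted alone and each library left out. Library totals alone, the TMM factor as covariate and 3 subsets of libraries were added after seeing the data.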

Additional observations from a re-analysis of the deposited data

Results flagged for a closer look

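Within each time point the library farthest from the other 4 was examined for each of the 9 genes on the log2 scale, as its gap to the nearest library divided by the range. Of 36 groups, 7 exceeded the critical value of 0.71, where chance gives 1.8. Usp2 stood out upwards in ZT1 replicate 2 (0.915), ZT7 replicate 1 (0.781) and ZT13 replicate 2 (0.720), which had the lowest TMM factors of their time points. Btrc stood out downwards in ZT1 replicate 2 (0.744) and in ZT19 replicate 1 (0.868), where it had 25.0 normalised counts and the next library 329. Sirt1 stood out downwards in ZT7 replicate 4 (0.756) and in ZT13 replicate 5 (0.780). ZT19 replicate 1 was also the lowest of its time point for Csnk1e, Gsk3b and Prkaa1. What sets these libraries apart was not tested.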

How the results depend on the processing

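Across 34 alternatives, 0 of the 9 genes passed the adjusted threshold among the time points or for the 24-h curve, with each library left out in turn included (0 to 0). The number of member pairs past it was 0 except without ZT7 replicate 2 and ZT13 replicate 5, where it was 1, Csnk1d between ZT1 and ZT19, and where 843 genes of all were called among the time points instead of 81. With DESeq2, 1 pathway gene passed, Prkag2, and 599 of all genes were called among the time points and 74 for the curve instead of 6. The log2 TMM covariate gave 357 among the time points. Amplitudes in this paragraph were taken at the peak time of the main analysis, so a shifted peak can lower them or turn their sign. Fitted peaks ran from 13.2 to 22.3 h for Usp2, 5.68 to 16.3 h for Btrc and 6.78 to 15.2 h for Sirt1. Directions turned for Usp2 (log2 difference of ZT1 over ZT7 -0.33, amplitude -0.0278) and Gsk3b (amplitude -0.0215) with the log2 TMM factor as a covariate. With only the libraries under 50% of reads on genes, Btrc (log2 difference -0.0455, amplitude -0.0199) and Sirt1 (amplitude -0.0446) turned, and Btrc turned without ZT13 replicate 5 (-0.0154, in a range up to 0.585 with single libraries left out). The cause was not tested. Ciart kept a log2 difference from ZT1 to ZT7 between 1.15 and 2.05. Its test over the 4 time points had an adjusted p between 0.103 and 0.804, and an unadjusted p under 0.05 in 26 of 34 settings.

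The sample labels name no batch for the replicate numbers. Same-numbered libraries had correlated deviations above 0.1 in 12 of 30 pairs, and the best match was the own number in 7 of 30. Whether they share a batch was not tested. Under a replicate block 0 of the 9 genes passed, 31 genes of all were called among the time points and 0 for the curve, and Ciart had a difference of 1.70 from ZT1 to ZT7 and, over the 4 time points, an adjusted p of 0.388.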
